A study of Mus musculus with 19 samples.

Results

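Promoter regions that were open in all 4 progenitor populations of the series numbered 10211, among 77133 merged open regions (13.2%). They were found from 4 lists of ATAC-seq peaks, 1 list for each population. ATAC-seq marks open chromatin by where a transposase can cut it. Distinct peaks that shared at least 1 bp were merged, and a merged region was kept where all 4 lists had a peak in it and where it lay within 1000 bp of the start site of a gene. The 10211 regions served 11576 of the 25124 genes of the RNA table (46.1%), called member genes here. The regions were chosen by the peak calls and their distance to a start site, so peak signal is given as a description with no test. RNA took no part in the choice.

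The cells were 2 kinds of blood progenitor from C57BL/6 mice: hematopoietic stem cells, here HSC, which can renew all blood lineages, and LMPP, the multipotent progenitors primed toward lymphoid fates. Each kind came from fetal liver at E14.5 and from adult bone marrow at 12 weeks. All 4 were sorted as c-Kit+ Sca-1+ cells that lacked CD3, Gr1, B220, ter119 and the dead-cell dye 7AAD. HSC were CD48- CD150+ Flt3-, LMPP were CD48+ CD150- Flt3+, and the adult gates also left out CD11b+ cells, which the labels do not state for the fetal gates. No transgene or treatment is named. RNA-seq covered 2 fetal HSC libraries and 3 of each other population, and ATAC-seq covered 2 libraries in each. Library titles number replicates without tying them to animals, and the ATAC-seq protocol speaks of each sample as run in duplicate. The p-values therefore cover only how these libraries vary, which may be technical.

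A promoter is the stretch of DNA around a gene's start where the transcription machinery assembles. At active promoters nucleosomes are displaced, which is what a transposase detects. Many mammalian promoters lie in CpG islands, stretches rich in G, C and the CpG pair, and these tend to be open in most cell types, including the promoters of ribosomal, proteasomal and other genes that every cell uses. General promoter factors bind short motifs there: SP and KLF factors the GC box, NFY the CCAAT box, ETS factors a GGAA core, and NRF1, YY1 and ZNF143 their own elements. An open promoter is not always transcribed, because the chromatin can be accessible before, after or without transcription of the gene.

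The sequences below show both ends of this set. The first 4 are from the regions with the highest signal in every list for which a RefSeq promoter starts at the table's start site. Eef1a1, which encodes a translation elongation factor, stands for genes that every cell uses. The last 3 are promoters that were open in all lists although the RNA was at 0 counts in every library of a population. Each runs 5′ to 3′ on the gene's strand from 200 bases before the start to 20 bases after it (RefSeq, GRCm38.p6). Capitals mark the CCAAT box (CCAAT, or ATTGG on the other strand) and the GC box (GGGCGG, or CCGCCC).
Gm14325, chr2:177840317-177840536, minus strand: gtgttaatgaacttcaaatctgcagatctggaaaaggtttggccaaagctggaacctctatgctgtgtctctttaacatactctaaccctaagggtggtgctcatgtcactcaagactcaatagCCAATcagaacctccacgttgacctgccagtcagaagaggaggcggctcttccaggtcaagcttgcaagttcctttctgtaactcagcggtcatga
6720489N17Rik, chr13:62624163-62624382, minus strand: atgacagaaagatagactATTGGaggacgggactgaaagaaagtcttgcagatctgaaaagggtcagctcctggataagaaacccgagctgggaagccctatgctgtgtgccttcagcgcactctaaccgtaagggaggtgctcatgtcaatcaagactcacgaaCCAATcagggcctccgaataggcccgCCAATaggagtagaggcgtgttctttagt
Depdc1a, chr3:159495233-159495452, plus strand: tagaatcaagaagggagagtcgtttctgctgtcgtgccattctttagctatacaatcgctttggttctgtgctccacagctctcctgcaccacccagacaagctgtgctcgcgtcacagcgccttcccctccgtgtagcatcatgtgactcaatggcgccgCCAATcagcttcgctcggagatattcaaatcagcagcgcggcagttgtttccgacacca
Gstk1, chr6:42245735-42245954, plus strand: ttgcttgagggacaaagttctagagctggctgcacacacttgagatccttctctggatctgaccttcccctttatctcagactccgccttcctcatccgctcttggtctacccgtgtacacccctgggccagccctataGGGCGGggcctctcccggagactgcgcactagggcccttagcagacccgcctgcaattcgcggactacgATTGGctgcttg
Eef1a1, chr9:78481705-78481924, minus strand: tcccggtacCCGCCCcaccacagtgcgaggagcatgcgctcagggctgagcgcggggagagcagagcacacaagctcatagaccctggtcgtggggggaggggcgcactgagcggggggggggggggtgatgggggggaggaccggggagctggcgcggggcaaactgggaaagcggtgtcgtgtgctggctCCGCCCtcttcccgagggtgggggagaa
Il7r, chr15:9529857-9530076, minus strand: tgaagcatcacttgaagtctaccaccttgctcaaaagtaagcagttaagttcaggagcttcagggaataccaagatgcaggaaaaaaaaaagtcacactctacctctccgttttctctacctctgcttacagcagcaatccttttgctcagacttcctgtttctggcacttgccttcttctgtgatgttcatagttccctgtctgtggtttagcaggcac
Cavin2, chr1:51288926-51289145, plus strand: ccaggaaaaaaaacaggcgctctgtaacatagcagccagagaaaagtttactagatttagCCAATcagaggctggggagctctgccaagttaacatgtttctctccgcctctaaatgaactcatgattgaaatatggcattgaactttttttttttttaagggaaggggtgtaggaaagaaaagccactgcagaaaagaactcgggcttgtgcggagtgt
Lin28b, chr10:45470182-45470401, minus strand: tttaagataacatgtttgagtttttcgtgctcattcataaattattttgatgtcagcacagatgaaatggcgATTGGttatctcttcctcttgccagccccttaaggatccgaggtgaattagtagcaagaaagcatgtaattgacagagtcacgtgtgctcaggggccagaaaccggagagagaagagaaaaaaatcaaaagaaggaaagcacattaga
All 4 promoters of highest signal held a CCAAT box in the printed window, and 6720489N17Rik held 3 of them. The Eef1a1 promoter held 2 GC boxes and no CCAAT box. Over the whole 300-base RefSeq promoter, from 250 bases before the start to 50 after, Eef1a1 had 66.7% G and C. Gm14325 had 47.7%, 6720489N17Rik 52.3%, Depdc1a 54.3% and Gstk1 55.3%. Il7r had 45.7%, Cavin2 43.3% and Lin28b 39%.

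RNA libraries held 19.8 to 64.8 M counts. Adult HSC 3, fetal LMPP 1 and adult LMPP 3 differed from their group mates. Their median level over member genes was 8.46, 8.63 and 8.03 RPKM, against 10.4 to 10.5, 9.07 to 9.2 and 9.72 to 9.91 RPKM in the other members of those groups. Summed markers of other cells differed between populations. Neutrophil-lineage markers summed to 1867 to 3227 CPM in LMPP and 2.44 to 218 CPM in HSC, and erythroblast markers to 663 to 765 CPM in fetal HSC and 16.3 to 272 CPM in the other 9 libraries. Mast cell and basophil markers reached 129 CPM in adult HSC 3 and 72.1 CPM in adult LMPP 3, against 5.56 to 33.4 CPM in the other adult libraries. Hepatocyte markers summed to 58 CPM in fetal HSC 2, 57.9 CPM in fetal LMPP 1 and 7.35 to 30.2 CPM elsewhere. Endothelial markers summed to 284 and 330 CPM in fetal HSC and 77.9 to 188 CPM elsewhere. Stromal markers summed to 16.2 to 52.3 CPM in LMPP and 0.511 to 7.09 CPM in HSC. The LMPP markers summed to 1043 to 3272 CPM in LMPP and 22.2 to 75.1 CPM in HSC, as the sorts intended. The part of these other markers in the RNA differences below was not tested. In bulk RNA, fewer cells that express a gene and less RNA per cell cannot be told apart.

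Openness in all populations and nearness to a gene start went together. Of 23657 regions with peaks of all 4 lists, 43.2% lay within 1000 bp of a start site. The share was 13.4% among regions of 3 lists, 8.15% among regions of 2 and 5.96% among regions of 1. Most of the 10211 regions sat on the start itself: 9708 (95.1%) covered a start site, 109 lay beside one within 250 bp, and 394 lay farther off, up to 1000 bp. Their median width was 1200 bp, with quartiles of 996 and 1436 bp, against 770 bp for the 13446 regions of all 4 lists that lay farther from a start. Just inside the distance limit were the regions of Scn11a (987 bp), 1810006J02Rik (989 bp), Cenpc1 (997 bp) and Smad3 (997 bp). Just outside were those of Tm6sf1 (1001 bp), E2f3 (1002 bp), Hspb7 (1002 bp) and Spryd4 (1003 bp). The limit did not decide membership for 1810006J02Rik, Cenpc1 and E2f3, which each had another shared region that covered the start. Of the 10211 regions, 8665 served 1 gene, 1502 served 2 and 44 served 3 to 5.

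**Figure D1:**
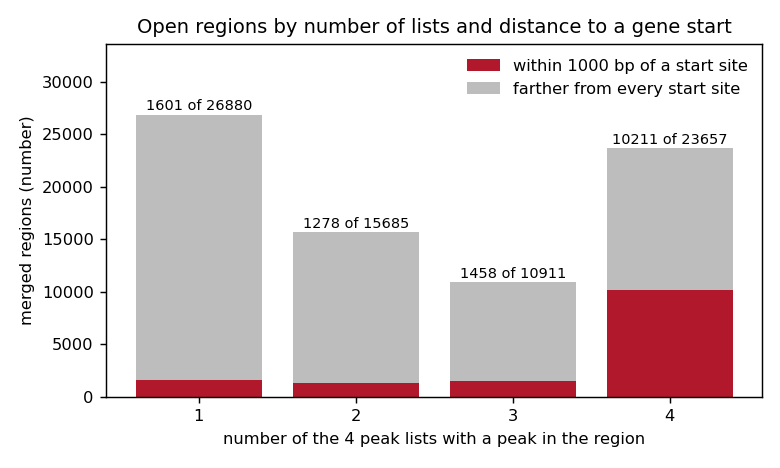
Bars give the number of merged open regions (y axis) by how many of the 4 peak lists had a peak in them (x axis), split by distance to a gene start. Regions of all 4 lists hold 10211 promoter regions of 23657, and regions of 1 list hold the smallest share near a start, 5.96%.

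Protein-coding genes were members more often than other genes: 10685 of 20870 (51.2%) against 891 of 4254 (20.9%). The share of coding genes differed between chromosomes, from 63.1% on chromosome 12 and 58.7% on chromosomes 8 and 13 down to 41.7% on chromosome 7 and 38.3% on the X chromosome. On the Y chromosome 3 coding genes of 45 were members: Ddx3y, Eif2s3y and Uty.

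Signal within a list was described by the percentile of a region's highest peak among the distinct peaks of that list. The median percentile of the promoter regions was 76.4 in fetal HSC, 74.2 in adult HSC, 69.5 in fetal LMPP and 71.5 in adult LMPP. Promoter regions of 1 to 3 lists had medians of 20 to 27.2. Peak calls depend on signal, so this order follows in part from how the classes were made. Peaks in the 10211 regions made up 20.4 to 28.4% of each list and 36.3 to 52.2% of its strongest decile. Against the shared regions farther from a start, the order depended on how a region was summarised. With each peak taken at its highest summit, those regions had lower medians of 67.1, 68.7, 58.5 and 69.2. With each peak taken at the mean over its summits, they had higher ones, 70.2, 70.6, 62.2 and 70.9. The promoter regions then had 60.6, 57.9, 53.6 and 54.7. In both cases the highest peak of a region was used. Promoter regions held a median of 3 summits in each list and the farther regions 1.

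**Figure D2:**
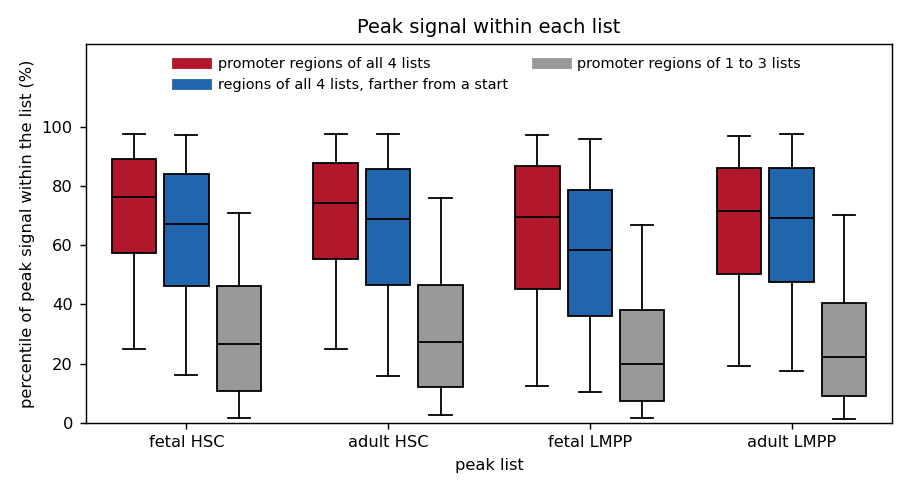
Boxes give the median and quartiles, and whiskers the 5th and 95th percentiles, of the highest peak signal of a region as a percentile of its list (y axis), for 3 classes of region in each list (x axis). Promoter regions of all 4 lists had medians between 69.5 and 76.4, and promoter regions of 1 to 3 lists medians between 20 and 27.2. The classes rest on peak calls, which depend on signal.

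The ranking of the promoter regions by signal was much alike in the 4 lists. Spearman's rho over the 10211 regions was 0.861 between fetal and adult HSC, 0.856 between fetal and adult LMPP, 0.847 between adult HSC and LMPP, 0.851 between fetal HSC and LMPP, and lowest, 0.752, between adult HSC and fetal LMPP. These are descriptions of 4 lists over the same regions, which share sequence and width. In all, 6351 regions (62.2%) were above the median of every list and 1092 (10.7%) were below the median of every list. The 5 regions with the highest signal throughout were those of Gm14325, 6720489N17Rik, Depdc1a, Trim12c and Gstk1, which ranked between 1 and 33 in each list. Gm14325, for example, had a signal of 30.8 in fetal HSC, 33 in adult HSC, 23.5 in fetal LMPP and 33.1 in adult LMPP. Gstk1 encodes a glutathione transferase, and reads of Gm14325 and 6720489N17Rik may be shared with similar gene copies. Among the weakest throughout were those of Parp8, Arrdc3, Atp13a2 and the histone gene Hist1h2ab, with signals between 2.96 and 4.04.

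High signal did not mean high RNA at these extremes. Gstk1, with one of the strongest promoters, had 13.2 and 13.8 CPM in fetal HSC, 16.4, 19.5 and 28.2 CPM in adult HSC, 7.78, 5.21 and 6.63 CPM in fetal LMPP, and 13.9, 10.5 and 16.2 CPM in adult LMPP. Atp13a2, a lysosomal transporter with one of the weakest, had 552 and 563 CPM in fetal HSC, 344, 281 and 138 CPM in adult HSC, 313, 472 and 457 CPM in fetal LMPP, and 313, 296 and 140 CPM in adult LMPP. CPM is counts scaled to a common library total. Per 1000 bases of exon, Atp13a2 stood at 130, 59.2, 96.3 and 58.1 RPKM in fetal HSC, adult HSC, fetal LMPP and adult LMPP, and Gstk1 at 14.7, 23.2, 7.11 and 14.7 RPKM, so the gene with the weaker promoter signal had the higher RNA level in all 4 groups.

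The share of promoters with a CCAAT box rose with promoter signal. RefSeq promoters that start exactly at the table's start site were found for 17578 genes, 8780 of them members. Among member promoters 40.1% held a CCAAT box, near the 38.8% of all 17578. When the regions were ranked by their mean rank over the 4 lists, the share rose from 26% in the weakest quartile (1931 promoters) to 32.2%, 42% and 57.3% in the strongest quartile (2318 promoters). The rise was seen with the number of boxes too. Promoters with 0 boxes had median signal percentiles of 73.4, 71, 66.6 and 68 in fetal HSC, adult HSC, fetal LMPP and adult LMPP. With 1 box they were 80.3, 78.1, 75.1 and 75.5, with 2 boxes 87.9, 86.1, 84 and 84.6, and with 3 or more 90.3, 87.6, 86.4 and 84.5. When each peak was taken at the mean over its summits, promoters with a box still had higher medians, 70.2, 67.3, 64.8 and 64.4, than promoters without, 56.3, 54.3, 48.6 and 51.5.

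The extra CCAAT boxes lay close before the start. In the bin from 75 to 51 bases before it, 19% of promoters of the strongest quartile and 4.76% of the weakest held a box, against 8.37% of all promoters. In the bin farthest before the start the shares were 4.49% and 2.74%. Median G and C content was 60.3% in the strongest quartile and 63% in the weakest, and the median ratio of observed to expected CpG 0.772 and 0.793. RNA differed little by the presence of a box, and more where there were many. The median level of member genes with a box was 12 RPKM in fetal HSC, 11.8 in adult HSC, 10.9 in fetal LMPP and 11.3 in adult LMPP. Without one it was 10.2, 10.1, 9.2 and 9.28 RPKM. With 2 boxes it was 11.6, 11.1, 9.3 and 10.5 RPKM. With 3 or more, in 544 promoters, it was 14.8, 14.9, 14.3 and 14.9 RPKM. RPKM is CPM per 1000 bases of exon.

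**Figure D3:**
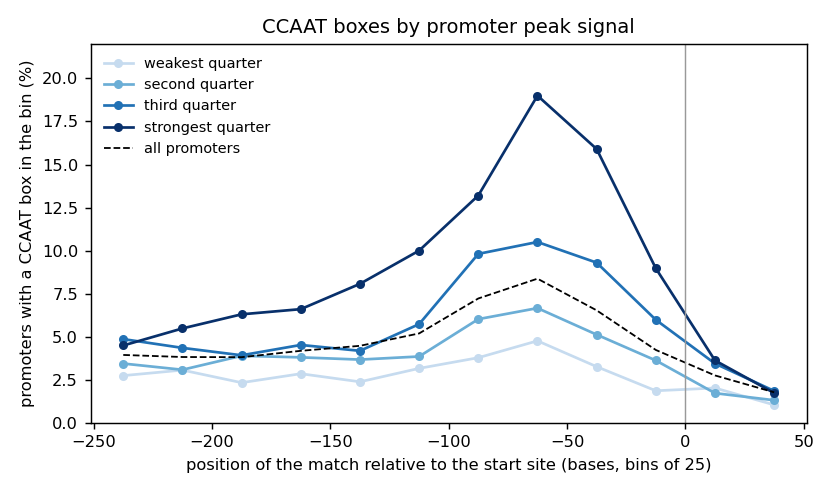
Lines give the share of promoters with a CCAAT box whose first base falls in each bin of 25 bases (y axis), by position relative to the start site (x axis), for member promoters in 4 quartiles of signal and for all 17578 promoters. The strongest quartile peaks at 19% in the bin from 75 to 51 bases before the start, where the weakest has 4.76%.

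Of the other motifs, ZNF143 went with both signal and RNA, and the ETS core, BANP, NRF1 and YY1 more with RNA. ZNF143 (ACTACAA) was in 2.49% of promoters of the weakest quartile and 7.59% of the strongest, and its promoters had median percentiles of 86.8, 85.4, 80.6 and 82.2 in the lists, against 77.5, 75.1, 71.4 and 72.7 without it. Its genes had medians of 15.2, 15.6, 16.3 and 14.7 RPKM in fetal HSC, adult HSC, fetal LMPP and adult LMPP, against 10.6, 10.6, 9.6 and 9.97 RPKM without it. The ETS core (CCGGAAGT) was in 9.12% of member promoters and 5.44% of all. By quartile of signal, from weakest to strongest, it was in 6.21%, 10.5%, 9.08% and 10.3%. Member genes with it had a median of 18.5, 18, 18.7 and 18.2 RPKM in fetal HSC, adult HSC, fetal LMPP and adult LMPP, against 10.2, 10.1, 9.11 and 9.44 RPKM without it, while the signal percentiles were 80.1, 77.5, 73.9 and 75.1 against 77.5, 75.4, 71.5 and 73. BANP (CTCGCGAG, in 2.26% of member promoters and 1.28% of all) behaved alike, with 20.2, 19.3, 21.1 and 18.5 RPKM against 10.7, 10.6, 9.68 and 10.1. NRF1 (GCGCATGC) was in 5.9% against 3.71% and YY1 (AAGATGGC) in 5% against 3.27%. In the same order of groups, genes with NRF1 had 15.5, 15.4, 15.5 and 15.2 RPKM against 10.6, 10.5, 9.56 and 9.85 without it. Those with YY1 had 16.5, 16.2, 17.7 and 17.3 RPKM against 10.5, 10.5, 9.48 and 9.87. Both strands were searched, motifs may overlap one another, and a match is not evidence of a bound factor.

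Motifs of blood and stress factors were not more frequent in member promoters than in all promoters. The shares were 11.7% and 14.8% for RUNX (TGTGGT), 5.09% and 9.64% for the motif AGATAA of GATA factors, 3.2% and 3.21% for PU.1 (GAGGAAGT), 3.85% and 7.3% for the AP-1 motif TGANTCA, and 6.77% and 8.09% for the interferon element TTCNNTTTC. The TATA box (TATAAA) was in 6.12% and 12.9%. The GC box (GGGCGG) was in 69% against 47.3%, the CRE (TGACGTCA) in 3.82% against 2.44% and the E-box (CACGTG) in 11.1% against 8.24%. Base composition moved with these shares: the median G and C content was 62% in member promoters, 58.3% at genes with peaks of 1 to 3 lists and 47.3% at genes with no promoter peak. Of member promoters 75.7% had at least 50% G and C with an observed to expected CpG ratio of at least 0.6, against 46.4% of all promoters and 6.93% of those with no peak. Motif shares were not tested apart from base composition.

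Most member genes were transcribed. The median level of the 11576 member genes was 10 RPKM in fetal HSC, 10 in adult HSC, 9.06 in fetal LMPP and 9.4 in adult LMPP. Genes with a promoter region of 3 lists had medians of 0.719, 0.931, 0.405 and 0.417 RPKM, and genes with no promoter peak a median of 0 in all 4 groups. In every library, member genes held 87.9 to 90.5% of all counts. Of the member genes 9350 (80.8%) reached 1 CPM in all 4 groups. Along the ranking of tested genes by RNA level, member genes made up 33.8% of the lowest decile, 80% of the fifth and 89.3% of the ninth. Above the weakest promoters, signal told little about level. Member genes at regions of the weakest quartile had medians of 4.78 to 5.87 RPKM in the 4 groups, and the other quartiles 10.2 to 12.1 RPKM. Over the 11576 genes, Spearman's rho between percentile and RPKM within a group was 0.103 to 0.125, a description over genes that can share a region.

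Genes that every cell uses were mostly members, as were most genes with much RNA. Over all genes the share was 46.1%, and in deciles 7 to 10 of RNA level among tested genes it was 84.6 to 89.3%. The lists below were not compared with genes of like RNA level. Member genes made up 73 of 74 cytosolic ribosomal protein genes (all but Rps4x), 42 of 47 mitochondrial ribosomal protein genes, and 30 of 31 proteasome subunit genes (all but Psmc1). They were 33 of 34 spliceosome genes, 19 of 20 tRNA synthetase genes, 39 of 40 ribosome biogenesis genes, 38 of 39 DNA replication genes and 35 of 41 genes of RNA polymerase II and its general factors. Lineage lists were covered less than these lists, beside 10632 members among all 14720 tested genes. Members were 33 of 46 hematopoietic transcription factor genes, 12 of 23 antigen presentation genes, 10 of 30 megakaryocyte and platelet genes, 10 of 29 lymphoid priming genes and 7 of 17 genes of the fetal Lin28b and let-7 program. Gata2, Gata1, Fli1, Gfi1b and Hoxa9 were among the transcription factor genes that were not members. Each gene was judged by the single start site of the RNA table, so an open region at another start was not counted. Gata2 had means of 304, 438, 36.3 and 45.5 CPM in fetal HSC, adult HSC, fetal LMPP and adult LMPP, and Fli1 221, 229, 110 and 120 CPM. Not being a member thus does not show that a gene lacks a shared open promoter. The gene of the RNA-binding protein Igf2bp2 and the imprinted Igf2, H19 and Dlk1 were not members either. Of 40 genes restricted to other tissues, 3 were members: Actn2, Syn1 and Snap25.

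Some member genes had an open promoter region and little or no RNA. In all, 1362 member genes (11.8%) stayed under 1 CPM in every group, and 408 of them had 0 counts in all 11 libraries. Of the 1362, 885 were protein coding, and 1003 did not share their region with a gene at 1 CPM or more. Their regions had median percentiles of 68.6, 66.1, 56.8 and 58 in fetal HSC, adult HSC, fetal LMPP and adult LMPP, against 78, 75.6, 71.9 and 73.5 for the 10214 other member genes. Their promoters met the CpG criterion less often, 56.9% of 897, against 79.4% of 7260 promoters of genes at 1 CPM or more in all groups. They also held fewer of the ETS core (3.34% against 10.3%), NRF1 (2.34% against 6.52%) and YY1 motifs (1.23% against 5.72%), while CCAAT boxes were in 35.3% against 41%.

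Snap25 was the clearest single case among the genes of other tissues, and was picked out after its values were seen. It encodes a protein of synaptic vesicle fusion in neurons. Its region stood at percentiles 97.9 in fetal HSC, 99.4 in adult HSC, 98.2 in fetal LMPP and 99.8 in adult LMPP, and the gene had 0 counts in all 11 libraries. A count of 0 allows up to 3 counts, which is 0.0498 to 0.152 CPM by library. Syn1, which encodes synapsin, had percentiles of 72, 54.9, 44.4 and 48.2 and at most 0.118 CPM in any library. Actn2, the sarcomeric alpha-actinin gene, had percentiles of 97.2, 94, 84 and 87.6. Its RNA was 0.157 and 1.19 CPM in fetal HSC, 0.0951, 0 and 0.249 CPM in adult HSC, 2.65, 3.4 and 1.4 CPM in fetal LMPP, and 2.83, 0.897 and 2.49 CPM in adult LMPP. Adult LMPP was above adult HSC without overlap, by 4.02 ± 1.08 on the log2 scale (SE, adjusted p = 0.028). That call was lost without adult HSC 1 (adjusted p = 0.093), adult HSC 2 (0.059), adult LMPP 1 (0.073) or adult LMPP 3 (0.059), and with the replicate number as a block (0.052).

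A further 39 of the 11576 member genes were at 0 counts in every library of at least 1 population and at 5 CPM or more in another. Of them 24 were at 0 in adult LMPP, 12 in fetal LMPP, 6 in adult HSC and 3 in fetal HSC, some in more than 1. The matching count over all genes is not given, so these numbers do not show whether the pattern is commoner or rarer in member genes. The list of the population without RNA held a peak in each case by the rule that chose the regions, which is no separate result. Where a group is at 0, a fold is a lower bound against 3 counts per library, averaged over the group's libraries.

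Il7r, the receptor chain for interleukin 7, showed this for the lymphoid side. Its region (chr15:9529476-9530258) covered the start and stood at percentiles 81.1 in fetal HSC, 30.7 in adult HSC, 91.8 in fetal LMPP and 86.7 in adult LMPP. RNA was 0 and 0.195 CPM in fetal HSC, 0, 0 and 0 CPM in adult HSC, 21.1, 54.8 and 37.1 CPM in fetal LMPP, and 19.4, 15.3 and 15.5 CPM in adult LMPP. LMPP libraries were thus above all HSC libraries at both ages. The level in adult LMPP was at least 207-fold higher than in adult HSC (adjusted p = 0.00016), and fetal LMPP was above fetal HSC by 8.33 ± 0.87 on the log2 scale (SE, adjusted p = 0.00087). Clec2i, a C-type lectin gene whose region lay 891 bp from the start, was at 0 CPM in all 3 adult HSC libraries and at 27, 25.2 and 34 CPM in adult LMPP, at least 355-fold higher (adjusted p = 0.00026). Sema3d and Tnfsf8 were also at 0 CPM in all adult HSC libraries and were at least 164-fold and 62.4-fold higher in adult LMPP. Ebf1, the B-cell transcription factor gene, was at 0 CPM in all adult HSC libraries and at 5.88, 8.35 and 7.22 CPM in fetal LMPP, but its region lay 706 bp from the start and did not cover it.

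Cavin2, which encodes a coat protein of caveolae, showed the reverse in adult cells. Its region (chr1:51288684-51289538) stood at percentiles 83.1, 77.7, 49.2 and 34.9 in fetal HSC, adult HSC, fetal LMPP and adult LMPP. RNA was 28.2 and 13.5 CPM in fetal HSC, 229, 126 and 132 CPM in adult HSC, 4.85, 6.02 and 11.2 CPM in fetal LMPP, and 0 CPM in all 3 adult LMPP libraries. Every fetal LMPP library was above every adult LMPP library. Adult LMPP was at least 1458-fold lower than adult HSC (adjusted p = 2.80e-05), and fetal LMPP was at least 66-fold above adult LMPP (adjusted p = 0.00033). Plscr2, of the phospholipid scramblase family, was at 13.1, 20.3 and 27.7 CPM in adult HSC and at 0 CPM in all 6 LMPP libraries, at least 183-fold lower in adult LMPP (adjusted p = 0.00026). Its region lay 767 bp from the start. Rhoj, Sfrp1 and Wwtr1 were likewise at 0 in adult LMPP, at least 187-fold, 114-fold and 64.6-fold below adult HSC.

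Lin28b, an RNA-binding protein that blocks maturation of the let-7 microRNAs, had an open promoter region in all 4 lists, with little RNA in adult HSC and none counted in adult LMPP. The region (chr10:45469054-45470639) stood at percentiles 9.9 in fetal HSC, 9.82 in adult HSC, 31.3 in fetal LMPP and 40.1 in adult LMPP. RNA was 29.5 and 21 CPM in fetal HSC, 0.793, 0.195 and 0.15 CPM in adult HSC, 27.7, 47.6 and 35.2 CPM in fetal LMPP, and 0 CPM in all adult LMPP libraries. Fetal and adult libraries did not overlap in either cell type. The level was at least 331-fold higher in fetal than in adult LMPP (adjusted p = 0.00019) and higher by 6.11 ± 0.66 on the log2 scale in fetal than in adult HSC (SE, adjusted p = 0.0013). The promoter percentile was not lower in the adult LMPP list, where the RNA was at 0, than in the fetal HSC list. Zfp711, an X-linked zinc finger gene, was at 21.9 and 31.6 CPM in fetal HSC, 4.06, 3.19 and 2.99 CPM in adult HSC, and 0 CPM in all adult LMPP libraries. In fetal LMPP it was at 15.2 ± 1.08 CPM (SD, n = 3). Adult LMPP was at least 137-fold below fetal LMPP (adjusted p = 1.08e-05). Its percentiles were 93.5, 66.6, 91.8 and 61.8.

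**Figure D4:**
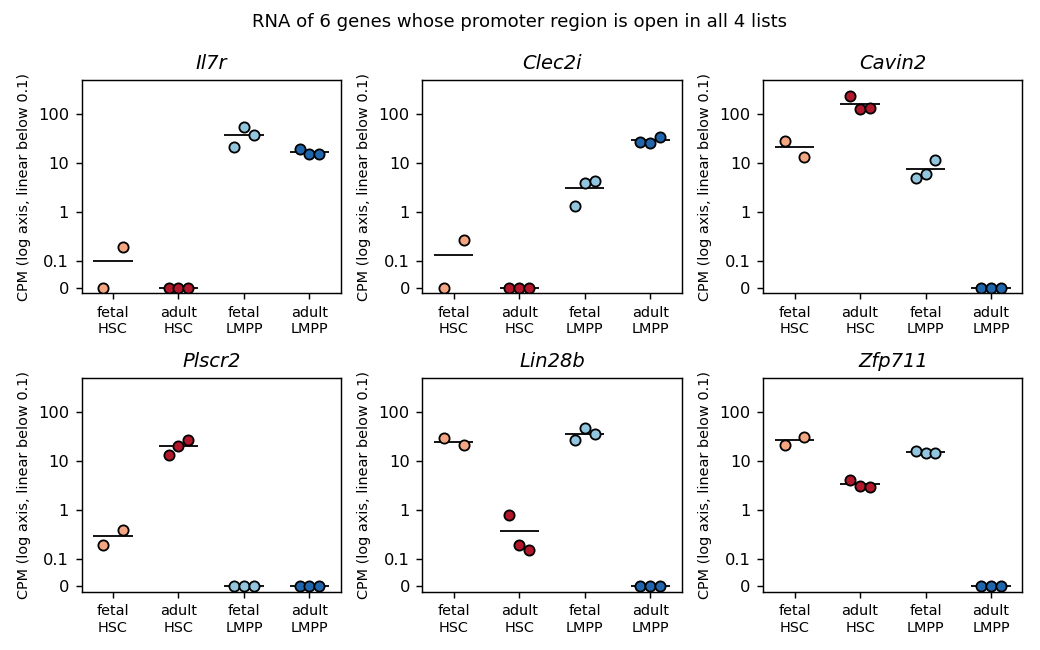
Points give CPM in each RNA library (y axis, log scale above 0.1 CPM and linear below) and lines the group mean for 6 member genes in the 4 populations (x axis). Each gene has at least 1 population with every library at 0, such as adult LMPP for Cavin2, Lin28b and Zfp711. By the rule that chose the regions, all 4 peak lists hold its promoter region.

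RNA of member genes differed between populations about as often as RNA of all genes or less. Of the 11576 member genes 10632 (91.8%) passed the filter on low counts, and 944 did not. Called in at least 1 of the 4 comparisons at an adjusted p under 0.05 were 3226 of the 10632 (30.3%), beside 32.8% of all 14720 genes tested. The shares below are read against the same 14720 genes, which include the members. The 4088 other tested genes were called lower more often in every comparison. In the order used below their shares were 4.82%, 11.8%, 14.3% and 15.1%, beside 2.14%, 6.95%, 7.4% and 7.84% of members. Called higher were 2.86%, 6.7%, 8.95% and 7.24% of the other genes, beside 1.76%, 7.22%, 7.31% and 8.58% of members. The size of the differences was smaller too: the median absolute log2 difference was 0.316, 0.387, 0.337 and 0.465 in member genes and 0.378, 0.451, 0.412 and 0.555 in all tested genes, for the age comparison in HSC and in LMPP and for LMPP against HSC in adult and in fetal cells. Member genes also had more RNA: they were 33.8% of the lowest decile of RNA level among tested genes and 87.2% of the highest. Shares called and sizes were not compared at like RNA level, so they do not show that member genes vary less.

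Between fetal and adult HSC, 187 member genes were higher in fetal cells (1.76%, beside 2.07% of all tested) and 228 lower (2.14%, beside 2.89%). Counts rested on single libraries. With adult HSC 3, fetal LMPP 1 and adult LMPP 3 all left out they were 791 and 843. Without fetal HSC 1 they were 67 and 63, without fetal HSC 2 they were 53 and 54, and without adult HSC 1 the higher genes were 118. The inhibitors of basic helix-loop-helix factors Id3 and Id1 were among the risen genes. Id3 was at 39.3 and 44.8 CPM in fetal HSC and 0.317, 0.521 and 0.698 CPM in adult HSC, a difference of 6.31 ± 0.43 on the log2 scale (SE, adjusted p = 3.56e-05). Hmga2, an architectural chromatin protein, was at 109 and 131 CPM in fetal HSC and 3.39, 3.84 and 1.43 CPM in adult HSC, a difference of 5.39 ± 0.46 (SE, adjusted p = 0.00016). Both rose from promoters of no more than middling signal, at percentiles 51.9 and 29.6 for Id3 and 15.4 and 10.1 for Hmga2 in fetal and adult HSC.

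Antigen presentation genes stood on the other side. Of the 12 members of that list 10 were lower in fetal than in adult HSC, the other 2 did not pass, and the median log2 difference was -1.92, beside 0 over all tested genes. B2m, the light chain of class I molecules, was at 606 and 656 CPM in fetal HSC and 1899, 2332 and 2570 CPM in adult HSC, a difference of -1.85 ± 0.20 on the log2 scale (SE, adjusted p = 0.0005). Its promoter stood at percentiles 93.4 and 88.5. H2-Aa, a class II chain, was at 0.118 and 0.317 CPM in fetal HSC and 44.9, 67.4 and 110 CPM in adult HSC (-8.30 ± 1.19, SE, adjusted p = 0.0026), from a promoter at percentiles 78 and 72.8. Libraries of the 2 ages did not overlap for either gene, and the promoter was open at both ages. Rgs1, a regulator of G-protein signalling, fell from 63.8, 96.6 and 99.7 CPM in adult to 1.65 and 1.22 CPM in fetal HSC (-5.92 ± 0.44, SE, adjusted p = 6.20e-05), with percentiles of 44.2 in fetal and 82.1 in adult HSC.

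Between fetal and adult LMPP, 768 member genes were higher in fetal cells (7.22%, beside 7.08% of all tested) and 739 lower (6.95%, beside 8.29%). Leaving out 1 library moved the 768 to 1225 (adult HSC 3), 499 (fetal LMPP 1), 421 (fetal LMPP 2), 511 (fetal LMPP 3) and 398 (adult LMPP 1). It moved the 739 to 418 (fetal LMPP 2), 480 (fetal LMPP 3) and 485 (adult LMPP 1). Leaving out adult HSC 3, fetal LMPP 1 and adult LMPP 3 together gave 1767 and 1539. Genes of growth were among the higher ones. Higher were 20 of 39 ribosome biogenesis members, 14 of 19 tRNA synthetase members, 13 of 33 spliceosome members, 8 of 30 proteasome members and 14 of 73 ribosomal protein members, and lower were 2 ribosomal protein members and none of the other 4 lists. The medians were 0.70 for ribosome biogenesis and 0.79 for tRNA synthetases, beside 0 over all tested genes. Bop1, a ribosome assembly factor, was at 293, 277 and 254 CPM in fetal LMPP and 130, 151 and 146 CPM in adult LMPP (0.95 ± 0.14, SE, adjusted p = 0.0014). Yars, a tRNA synthetase gene, was at 182, 155 and 148 CPM against 61.3, 79.5 and 77.9 CPM (1.15 ± 0.16, SE, adjusted p = 0.0013). Fetal libraries were above adult ones without overlap for both. In HSC none of the members of these 5 lists was called between the ages. Fewer member genes were called there in all, 1.76% higher and 2.14% lower, with 2 fetal libraries. The HSC medians were 0.063 for ribosome biogenesis, 0.173 for tRNA synthetases, 0.355 for the spliceosome, 0.053 for the proteasome and 0.185 for ribosomal proteins. For these lists the difference between the cell types was not tested.

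Antigen presentation members were again lower in fetal cells, 10 of 12, with a median of -2.29, and 12 of 27 interferon response members were lower. Markers of other cells moved with age too. The 5 T and NK cell markers summed to 82.7 to 114 CPM in fetal and 369 to 511 CPM in adult LMPP, and to 29.6 to 32.5 CPM in fetal and 72.8 to 148 CPM in adult HSC, with Cd3e at 0 in all libraries. The 6 macrophage markers summed to 12.4 to 17.6 CPM in fetal and 31 to 45 CPM in adult LMPP, and to 18.1 to 23.6 CPM in fetal HSC, with adult HSC libraries both below and above that range, up to 32.7 CPM. Their part in the antigen presentation and interferon differences was not tested. Cpne2, a calcium-dependent phospholipid-binding protein, was among the genes that fell most: 2.02, 1.33 and 1.53 CPM in fetal LMPP and 54.3, 89.8 and 104 CPM in adult LMPP (-5.64 ± 0.37, SE, adjusted p = 1.50e-05). Its promoter percentiles were 11.8 in fetal and 72.6 in adult LMPP, and 45.8 and 76.6 in fetal and adult HSC, where its RNA was also lower in fetal cells (-4.38 ± 0.41, SE, adjusted p = 0.00021).

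Between adult LMPP and adult HSC, 777 member genes were higher in LMPP (7.31%, beside 7.76% of all tested) and 787 lower (7.4%, beside 9.33%). With the replicate number as a block over the 6 adult libraries alone the counts were 1589 and 1475. With the same 3 libraries left out they were 1530 and 1485. Without adult HSC 1 the higher genes were 499, without adult HSC 2 they were 516, and without adult LMPP 1 the counts were 459 and 478. Cytosolic ribosomal protein genes led by number: 63 of the 73 members were higher in LMPP, none lower, with a median of 0.52, beside -0.05 over all tested genes. Rpsa was at 720, 627 and 674 CPM in adult LMPP and 427, 435 and 384 CPM in adult HSC (0.70 ± 0.11, SE, adjusted p = 0.0015). Of the 10 megakaryocyte and platelet members 8 were lower in LMPP, with a median of -3.05. Of 9 lymphoid priming members tested 6 were higher and 1 lower. Flt3, the receptor used for the sort, was at 1064, 950 and 908 CPM in adult LMPP and 14.3, 16.4 and 9.4 CPM in adult HSC, with its promoter at percentiles 86.6 and 94.5.

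In fetal cells 912 member genes were higher in LMPP than in HSC (8.58%, beside 8.21% of all tested) and 834 lower (7.84%, beside 9.85%). These counts rested on the 2 fetal HSC libraries most of all: without fetal HSC 1 they were 224 and 309, and without fetal HSC 2 they were 120 and 190. The 912 also moved to 1416 (adult HSC 3 left out), 552 (fetal LMPP 1) and 470 (fetal LMPP 2), and the 834 to 469 (fetal LMPP 2). The same 3 libraries left out gave 2093 and 1957. Of the ribosomal protein members 53 of 73 were higher, and of the megakaryocyte and platelet members 8 of 10 were lower. Ribosome biogenesis members were higher in 21 of 39 in fetal cells and in 1 of 39 in adult cells. The difference between these counts was not tested, and 74 of 119 named calls in fetal cells were ended by at least 1 alternative. Ptger2, a receptor for prostaglandin E2, was at 37.3, 34.5 and 28.2 CPM in fetal LMPP and 0.0787 and 0.293 CPM in fetal HSC (7.35 ± 0.52, SE, adjusted p = 5.99e-05). It was at 41.7, 39.4 and 34.2 CPM in adult LMPP and 0.159, 0.391 and 0.332 CPM in adult HSC (7.00 ± 0.42, SE, adjusted p = 7.60e-06). Its promoter percentiles were 43.3, 38.2, 64 and 53.1 in fetal HSC, adult HSC, fetal LMPP and adult LMPP. Isl1, a LIM homeodomain factor, was at 5.7 and 4.78 CPM in fetal HSC and 0 CPM in all 6 LMPP libraries, at least 54-fold lower in fetal LMPP (adjusted p = 0.0024). Its promoter stood at percentiles 89, 82.3, 82.3 and 85.9.

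The fetal against adult difference itself differed between the cell types, by the interaction test, for 75 member genes. It was higher in LMPP for 30 (0.282%, beside 0.387% of all tested) and lower for 45 (0.423%, beside 0.543%). The counts were 7 and 13 with fetal HSC 1 left out, 4 and 11 with fetal HSC 2, 17 and 18 with adult HSC 1, 18 and 25 with adult HSC 2, and 17 and 15 with adult LMPP 1. With adult LMPP 2 left out the lower genes were 28, with fetal LMPP 2 they were 23, and with fetal LMPP 3 the counts were 18 and 20. They were 19 and 19 with the replicate number as a block, and 250 and 298 with the same 3 libraries left out.

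Within these regions, differences in promoter signal rank told little about differences in RNA. The rule left out promoters that lacked a peak in some list. The values below therefore do not cover promoters that were open in only some of the populations. For each comparison, regions were ranked among the 10211 in each list and the difference in rank was set beside the log2 difference in RNA over the 10632 tested member genes. Spearman's rho was 0.023 for the age comparison in HSC, 0.007 for that in LMPP, 0.023 for LMPP against HSC in adult and 0.001 in fetal cells. Ranks come from 1 list per group with no replicate, and genes can share a region. Among genes called higher, the region ranked higher in the same group for 52.4%, 51.3%, 53.5% and 49.1%, against 52%, 50.5%, 53.2% and 52% of all tested member genes. Among genes called lower, the region ranked lower for 48.7%, 52.2%, 50.8% and 54.1%, against 48%, 49.4%, 46.8% and 48%. Genes called lower were somewhat more frequent where the rank fell most. In the decile of genes with the largest fall in rank, 12.2% were called lower in adult LMPP against HSC, and in the decile with the largest rise 8.18% were. The pairs were 11% and 7.61% for fetal against adult LMPP, 11% and 7.71% for fetal LMPP against HSC, and 3.76% and 2.54% for fetal against adult HSC.

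**Figure D5:**
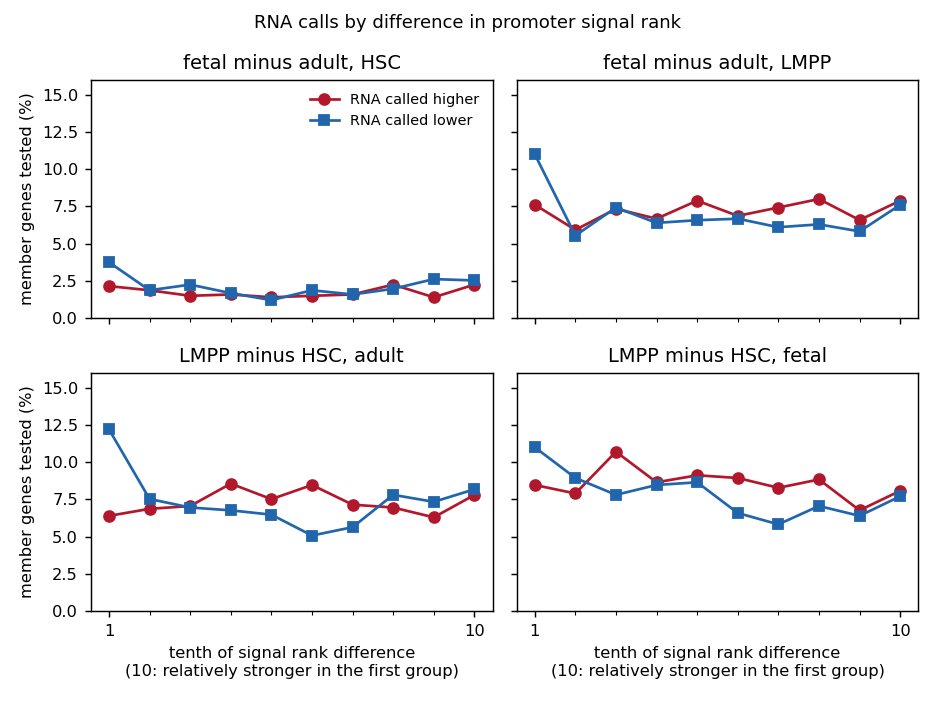
Lines give the share of tested member genes whose RNA was called higher or lower (y axis, %) in each decile of the difference in promoter signal rank (x axis), for the 4 comparisons. The share called lower is highest in the first decile in all 4 comparisons, such as 12.2% for adult LMPP against HSC, and the share called higher shows no such order.

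Some of the largest rank differences belonged to genes with no RNA. Ranks from lists of different lengths are set side by side here and show no change in openness. The region of Bche, which encodes butyrylcholinesterase, ranked 212 in fetal HSC and 8885 in adult HSC, and 771 in fetal LMPP and 10094 in adult LMPP, with 0 counts of Bche in all 11 libraries. Vwc2l, Cntnap5b and Cntnap5c, also among the largest differences between ages, had 0 counts in all libraries too. Over the 1362 member genes under 1 CPM, 14.1 to 15.6% had a region whose rank differed by more than 0.25 of the ranking in a comparison, against 9.6 to 11.2% of the other 10214. Klrd1, which encodes the lectin-like receptor chain CD94, was a case where both moved. Its region ranked 6548 in fetal HSC, 9904 in adult HSC, 13 in fetal LMPP and 142 in adult LMPP. Its RNA was 0 CPM in all 5 HSC libraries, 1.17, 3.4 and 3.19 CPM in fetal LMPP, and 0.404, 1.68 and 1.05 CPM in adult LMPP, at least 27.1-fold higher than HSC in fetal cells (adjusted p = 0.0081) and 12.9-fold in adult cells (adjusted p = 0.0047). The fetal call was lost without fetal HSC 2 (adjusted p = 0.065). Tmem47 ranked 2686 in adult HSC and 10054 in adult LMPP, and was at 7.13, 6.64 and 8.19 CPM in adult HSC and 0 CPM in all adult LMPP libraries, at least 65.7-fold lower (adjusted p = 0.0035). Zwint, a kinetochore gene, had a large rank difference and no called difference in RNA. Its region ranked 859, 1461 and 404 in fetal HSC, adult HSC and adult LMPP and 9385 in fetal LMPP, where its RNA was 419, 272 and 303 CPM, beside 172 to 334 CPM in the other 8 libraries (adjusted p = 0.34 for fetal against adult LMPP and 0.38 for fetal LMPP against HSC).

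The Y-linked members varied between libraries of the same group. Ddx3y was at 69.5 and 10.8 CPM in fetal HSC, 37.4, 64.2 and 41.6 CPM in adult HSC, 26.2, 44.6 and 3.23 CPM in fetal LMPP, and 46.8, 60.6 and 53.2 CPM in adult LMPP. Uty and Eif2s3y were lowest in the same libraries, fetal LMPP 3 (2.72 and 1.83 CPM) and fetal HSC 2 (9.75 and 4.39 CPM), and were at 12.8 CPM or more in all other libraries. Each of the 3 regions had its weakest rank in the fetal LMPP list: 7734 for Ddx3y, 5988 for Uty and 9020 for Eif2s3y. The labels do not state the sex of the mice, and its part was not tested.

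Many of the regions served a pair of genes that start back to back. There were 1053 such head-to-head pairs in 1030 regions (10.1%), 750 of them of 2 coding genes, with a median of 162 bp between the starts. Over the 895 pairs with both genes tested, Spearman's rho between the partners' log2 differences was 0.095 for the age comparison in HSC, 0.125 for that in LMPP, 0.224 for LMPP against HSC in adult and 0.199 in fetal cells, a description over pairs in the same libraries. In those comparisons 1, 19, 16 and 21 pairs had both partners called in the same direction, and 0, 3, 0 and 1 in opposite directions. One partner alone was called in 22, 191, 125 and 194. Over all tested member genes, 1.76%, 7.22%, 7.31% and 8.58% were called higher in those comparisons and 2.14%, 6.95%, 7.4% and 7.84% lower. Whether partners were called together more often than these shares give was not tested. The 3 opposite pairs between fetal and adult LMPP were Ccdc157 and Sf3a1, Atad3a and Atad3aos, and Hras and Lrrc56. The library chemistry keeps no strand, so reads where partners overlap cannot be assigned to one of them.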

How the data were processed

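RNA was measured in 11 libraries and open chromatin in 8. The deposited RNA table holds expected counts, made by the authors by counting exon reads per gene with HOMER, per the file headers. Values come in steps of 0.5, 22.5% are not whole, and they were rounded here. The 4 ATAC peak lists, 1 for each group, hold a signal value, a −log10 q and a score for each summit, all from the authors' peak caller, per the file headers, with no counts, so their depth is unknown. The submitters' processing notes give no roles for the tools, among them STAR, RSEM, Trim Galore and DESeq2 and, for peaks, MACS2, Bowtie2 2.3.5, SAMtools 1.9 and Picard, or for the builds mm10, NCBIM37 and GRCm38.p5.

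Peaks on 1 interval were reduced to 1 distinct peak with its highest signal. All 14720 genes that passed filterByExpr were tested with edgeR 4.0.16 (R 4.3.3), TMM scaling and the quasi-likelihood test over all 11 libraries, with Benjamini-Hochberg adjustment, which gave all adjusted p-values of genes. A gene was called at an adjusted p under 0.05. The common biological coefficient of variation was 0.372. The fits and the merging were tested on simulated data. Bounds use 3 counts per library and cover counting error only. Members, lists and motifs were chosen with earlier results of these data known. Genes were named by size of change among called genes at 5 CPM or more without overlap, by a group at 0, by signal extremes, by rank difference, by the lowest p within a list, or from a short list of reference genes. Alternatives were DESeq2 1.42.0, other filters, only the groups compared, a replicate block, single libraries left out, other distances, overlaps and q limits, and the mean over summits. Same-numbered adult HSC and LMPP libraries varied together (correlations 0.153, 0.306 and 0.472), which comes from the data and not from the labels. Of the differently numbered pairs of these groups, adult HSC 1 with LMPP 2 (0.216) and HSC 2 with LMPP 1 (0.128) varied together as well, and those with replicate 3 of either group had -0.372 to -0.194. There were 0 columns of other samples. Promoter sequences are from RefSeq, GRCm38.p6. One region that the naming rule picks is not reported here.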

Additional observations from a re-analysis of the deposited data

Results flagged for a closer look

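For 13 named member genes the difference between fetal and adult cells was not the same in LMPP and in HSC, by the interaction test of edgeR at an adjusted p under 0.05. Each value below is the log2 difference of fetal minus adult in LMPP minus the same difference in HSC. The largest was that of Cavin2, 13.95 (adjusted p = 0.002), whose fitted size rests on adult LMPP at 0 counts, as does that of Zfp711, 9.08 (adjusted p = 0.002). Cavin2 was lower in fetal than in adult HSC (adjusted p = 0.013, and 0.14 without fetal HSC 2) and higher in fetal than in adult LMPP. Flt3, the receptor used in the sort, had -2.11 (adjusted p = 0.007): it was higher in fetal than in adult HSC (adjusted p = 0.0089) and lower in fetal than in adult LMPP (adjusted p = 0.0053). The call in HSC was lost without fetal HSC 1 (0.062), without fetal HSC 2 (0.095) and with only the HSC libraries (0.11). Cnn3, which encodes a calponin, had -3.25 (adjusted p = 0.0036). The interaction calls of these 4 genes held in every alternative run for the interaction.

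The other 9 interaction calls were each lost in at least 1 alternative, and all 9 were lost without fetal HSC 2. Rgs1 had 3.72 (adjusted p = 0.0071, 0.091 without fetal HSC 2), Cst7, a cystatin gene, 5.43 (0.0089, 0.099) and Satb1, a chromatin organiser gene, -2.96 (0.014, 0.099). Mmrn1 had 2.55 (0.0075, 0.07), Mycn 1.93 (0.019, 0.14) and Id1 2.81 (0.022, 0.16). Dach1 had -5.95 (0.029, 0.14), Foxd2os -3.36 (0.035, 0.14) and Arap2 3.71 (0.042, 0.23).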

How the results depend on the processing

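Regions and member genes numbered 9817 and 11209 within 250 bp of a start, 10835 and 12162 within 2500 bp, 10223 and 11569 when peaks had to share 0.5 of the shorter one, and 7285 and 8474 in the part of each list with the higher −log10 q. With the mean over summits, the median percentiles fell to 60.6, 57.9, 53.6 and 54.7 in fetal HSC, adult HSC, fetal LMPP and adult LMPP, and their difference from shared regions farther from a start turned to -9.58, -12.7, -8.65 and -16.2. In the shorter promoter window the CCAAT share was 14.6% in the weakest and 44.1% in the strongest quartile. Counts of called member genes moved more than the regions did, given here as higher and lower. With DESeq2 they were 407 and 524 for age in HSC, 1192 and 1157 for age in LMPP, and 201 and 215 for the interaction. With only the 2 groups compared, the higher genes were 103 for age in HSC, 436 for adult LMPP against HSC and 1692 for fetal LMPP against HSC. Members from the part of each list with the higher q gave 118 and 146 for age in HSC, 496 lower for adult and 544 lower for fetal LMPP against HSC, and 17 higher for the interaction. Without the 3 libraries that stand apart, an alternative chosen after seeing the data, the pairs were 791 and 843, 1767 and 1539, 1530 and 1485, 2093 and 1957, and 250 and 298. With each library left out in turn, the ranges were 53 to 203 and 54 to 264 for age in HSC, 398 to 1225 and 418 to 1015 for age in LMPP, 459 to 1091 and 478 to 956 for adult LMPP against HSC, 120 to 1416 and 190 to 1109 for fetal LMPP against HSC, and 4 to 36 and 11 to 53 for the interaction. Where a group was left with 1 fetal HSC library, that library is assumed to vary like the others. The cause was not tested.

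With the replicate number as a block, the counts were 143 and 159 for age in HSC, 750 and 673 for age in LMPP, 751 and 716 for adult and 748 and 642 for fetal LMPP against HSC, and 19 and 19 for the interaction. Of 15 same-numbered pairs, whose correlations ran from -0.207 to 0.472, 3 were over 0.1, all between adult HSC and LMPP, and 6 of 11 libraries correlated best with their own number. The block over the adult libraries alone, chosen after seeing the data, gave 1589 and 1475. Of named calls, 24 of 43 for age in HSC, 68 of 100 for age in LMPP, 79 of 108 for adult and 45 of 119 for fetal LMPP against HSC held in every alternative.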
